A study of Parhyale hawaiensis with 42 samples.

Results

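The small RNAs of whole *Parhyale hawaiensis* embryos were compared between the first and second time-points of embryogenesis, S1–4 and S5–6. *Parhyale* is an amphipod crustacean. Its zygote is transcriptionally silent during the first cleavages, so that S1–4 embryos hold RNAs loaded by the mother, and the second time-point covers the cleavages at which zygotic transcription has been described to begin. Each time-point has 4 small RNA libraries, 8 of the 42 libraries of the series, and all 349 annotated mature microRNAs were taken in these 8 libraries with no selection on their values. They come from 175 hairpin precursors, of which 87 carry the name of a known family (173 mature microRNAs) and 88 are newly annotated (176). All 8 libraries are of wild-type embryos of a laboratory strain, collected from females, staged by hand and pooled by stage, with no treatment and no genetic change. By the labels the second time-point is stage 6 and the third stages 8 to 11, called S5–6 and S7–11 here after the study. Neither the labels nor the study's methods say whether the 4 libraries of a time-point come from separate broods, so that p-values measure the spread between libraries, which may be technical.

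A microRNA gene is transcribed into a hairpin that is cut to a duplex of about the length of the mature product, and usually 1 arm, 5p or 3p, is loaded into an Argonaute protein, while its partner is degraded. The loaded strand pairs through its seed with target mRNAs and lowers their stability or translation. In animals, maternal microRNAs are loaded into the egg, and in *Drosophila* and zebrafish a set of zygotic microRNAs made at the onset of transcription helps to clear maternal mRNAs. Between S1–4 and S5–6, a microRNA can therefore lose molecules through decay, hold, or gain molecules, and a difference in the level of the whole embryo does not tell these apart. Since levels are relative to the other microRNAs of a library, a gain of one and a loss of all others cannot be told apart either.

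Here, levels are normalized counts, the reads assigned to a mature microRNA divided by the size factor of its library. The libraries held 443926 to 1846449 counts at S1–4 and 563347 to 991792 at S5–6, and 58 of the 349 microRNAs had no count in any of the 8. Of the 349, 172 reached a mean level of 10 at S1–4, 165 at S5–6 and 157 at both time-points. 15 microRNAs reached this level only at S1–4 and 8 only at S5–6. Of the previously annotated microRNAs, 86 of 173 were expressed at both time-points, and of the newly annotated ones 71 of 176. Levels differ between libraries of a time-point in a way that the labels do not explain. On the first principal component of all 28 small RNA libraries (46.3% of the variance), S1–4 libraries 1 and 2 lay at -18.2 and -15.6 and S5–6 libraries 2 and 3 at -14.9 and -18.3, nearer to the S7–11 libraries (-15.6 to -13.6) than S1–4 libraries 3 and 4 (-25.8 and -26.3) and S5–6 library 4 (-26.1), with S5–6 library 1 between them at -21.9. Results were therefore also computed within each of these sets of libraries.

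Few microRNAs changed by the thresholds of the study, which ask for an absolute log2 fold change of 1.5 or more together with an adjusted p no higher than 0.001. Of 234 tested microRNAs (129 previously and 105 newly annotated), 3 fell (1.28%) and 0 rose (0%) in the quasi-likelihood test of edgeR. At an unadjusted p below 0.05, 52 were higher and 22 lower at S5–6, and the Wald test of DESeq2 placed 3 above and 5 below the same thresholds. At an adjusted p of at most 0.05 and any size of change, 20 (8.55%) were higher and 13 (5.56%) lower, the 3 that fell included. This balance depends on the scaling, on the filter and on the libraries fitted. With total counts in place of TMM factors it was 6 higher and 21 lower, with the size factors of DESeq2 15 and 14, without a filter on low counts 5 and 15, and with the 8 libraries fitted alone 1 and 9. Without overlap between the libraries of the time-points, 12 (5.13%) were higher and 13 (5.56%) lower at S5–6. The median log2 fold change of all tested microRNAs was 0.27 with TMM, 0.21 with DESeq2 size factors and -0.03 with total counts, and changes are best read relative to it.

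The opposite question, which microRNAs held, was asked with an interval. A microRNA is called steady here where the 95% interval of its log2 fold change lay within -1 to 1 and its adjusted p was above 0.05. 44 of the 234 (18.8%) were steady, and 157 were undecided, because their interval reached past this range. Of the 44, 35 were also steady with the 8 libraries fitted alone and 22 of them with each library left out in turn, and 31 with total counts as the scaling. The highest of the 8 libraries was less than 2-fold above the lowest in 19 of the 44, and in 5 it was more than 3-fold above, so that a steady mean can cover a wide spread between libraries. Steady calls followed the depth. Of 34 tested microRNAs with a mean of at least 1000 over the 8 libraries, 17 were steady and 6 undecided, of 60 with 100 to 1000, 22 and 27, of 76 with 10 to 100, 5 and 64, and of 64 below 10, 0 and 60. Of the previously annotated microRNAs 27 of 129 were steady and of the newly annotated ones 17 of 105. The steady microRNAs held 41.8% ± 2.2 of the S1–4 and 34.1% ± 0.96 of the S5–6 counts (SD, n = 4), and the 3 that fell held 0.301% ± 0.11 and 0.0532% ± 0.013.

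**Figure D1:**
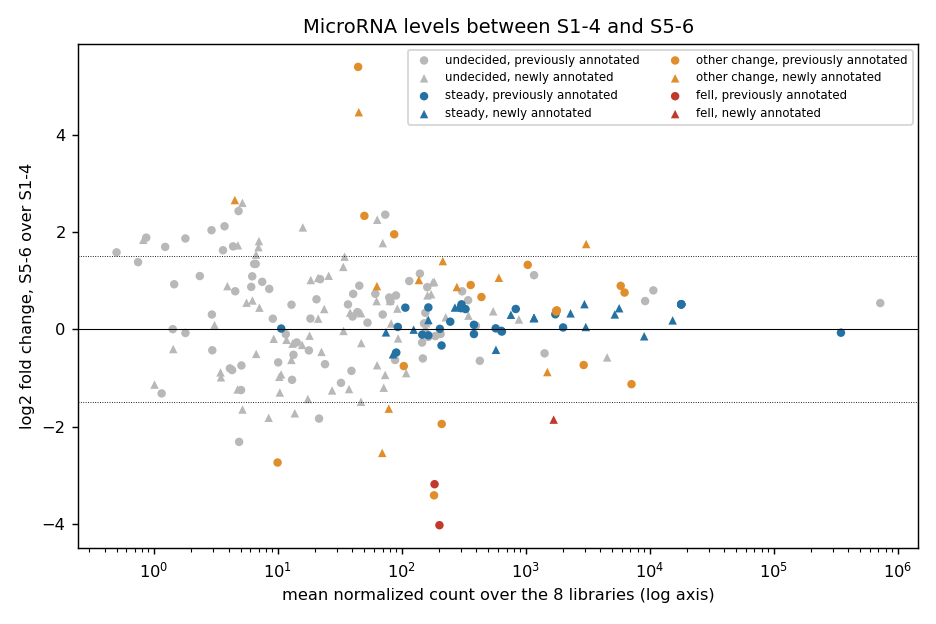
Log2 fold change of S5–6 over S1–4 against the mean normalized count of the 8 libraries (log axis), for the 222 tested microRNAs with counts at both time-points. Circles are previously annotated and triangles newly annotated microRNAs, red marks those that fell, orange the others with an adjusted p of at most 0.05, blue the steady ones, and dotted lines a log2 fold change of 1.5 in either direction. Steady microRNAs lie to the right, where counts are high, and the 3 that fell lie well above 100 counts. 12 tested microRNAs with no interval or with all libraries of a time-point at 0 are not plotted.

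The most abundant microRNAs were miR-92-3p and miR-184-3p at both time-points. In *Drosophila*, the miR-92 genes act in neural stem cells and miR-184 in the female germline and the early embryo. The miR-92 family took 84.0% ± 2.0 of the counts of S1–4 libraries and 84.4% ± 1.8 of those of S5–6 (exact permutation test, two-sided, p = 0.743, n = 4, adjusted over 6 measures 0.771). miR-92-3p of locus 34106 had 359120, 305919, 383251 and 406391 at S1–4 and 337126, 235844, 317343 and 450781 at S5–6, the groups overlapped, and it was steady (log2 fold change -0.07, 95% interval -0.53 to 0.38). miR-92-3p of locus 34108, the most abundant of all, had 666257, 456659, 656770 and 627995 at S1–4 and 884714, 537028, 897384 and 1076980 at S5–6. 3 of the S5–6 libraries were above every S1–4 library and the fourth was among them, and the change was undecided (log2 fold change 0.54, SE 0.27, adjusted p = 0.185). The third locus, 34110, had 4657, 3458, 4442 and 4123 at S1–4 and 7912, 4905, 7735 and 9479.7 at S5–6. Its groups did not overlap (log2 fold change 0.89, SE 0.28, adjusted p = 0.0304). The difference between the loci was not tested. The 5p arms of miR-92, which are far less abundant, summed to 452, 592, 607 and 602 at S1–4 and 360.3, 306, 250.1 and 456 at S5–6 over the loci, with S5–6 library 4 just inside the S1–4 range (log2 fold change -0.81, SE 0.26, adjusted p = 0.0384), and the summed 3p arms were steady (log2 fold change 0.21, SE 0.26, adjusted p = 0.649).

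miR-184 has 4 loci whose 3p arms share their reads, and their sum was 56248, 55652, 60752 and 72015 at S1–4 and 75403, 49018, 119174 and 86939.6 at S5–6. Library 3 of S5–6 was the highest and library 2 the lowest, and the sum was steady (log2 fold change 0.37, SE 0.20, adjusted p = 0.287). This sum and those of miR-92 come from a fit of summed copies with scaling factors of its own. Log2 fold changes of microRNAs with 1 locus were also lower in it, such as that of bantam-3p (0.29 against 0.44). Of the other previously annotated microRNAs among the 10 most abundant, miR-263a-5p, which protects sensory bristle cells from apoptosis in *Drosophila*, had 6171, 7347, 9055 and 10135 at S1–4 and 15350.4, 14664, 14069 and 8856 at S5–6. The groups overlapped in S5–6 library 4 and the change was undecided (log2 fold change 0.80, SE 0.28, adjusted p = 0.0523). Dpu-Mir-10-P2-5p, of the family of miR-100, had 5033, 6121, 10013 and 9067 at S1–4 and 16547, 8437, 9120.2 and 9198 at S5–6, with S5–6 library 1 far above the rest (log2 fold change 0.58, SE 0.35, adjusted p = 0.259).

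Newly annotated microRNAs held 5.61% ± 0.57 of the counts of S1–4 libraries and 4.91% ± 0.44 of those of S5–6 (exact permutation p = 0.143, n = 4, adjusted over 6 measures 0.429). Of their 10 most abundant members, all with a mean of at least 1000, 7 were steady. Of all 34 tested microRNAs with such a mean 17 were steady, and of all 234 tested 44. The members are named here by arm and by the number of their locus in the annotation. 14821-3p, the most abundant, had 13311, 12539, 14980.2 and 17543 at S1–4 and 19089.7, 10152, 14170 and 20841 at S5–6. It overlapped between the time-points (log2 fold change 0.18, 95% interval -0.14 to 0.50) and had a mean of 4855 at S7–11. 325-3p had a mean of 9600.1 ± 1507 at S1–4 and 8461 ± 3051 at S5–6, with SD over n = 4 (log2 fold change -0.15, 95% interval -0.54 to 0.25), and 1881 at S7–11. Both were steady with each library left out, and their means at both cleavage time-points were above that of S7–11. 14892-3p had 2835, 2889.8, 2959.5 and 3519.6 at S1–4 and 2757, 2181, 2672 and 4599 at S5–6. It was steady, with S5–6 library 4 the highest (log2 fold change 0.05, 95% interval -0.58 to 0.67), and had a mean of 350.4 at S7–11. For 34112-3p, which lies on the contig of the miR-92 loci, the means were 4895 ± 773 at S1–4 and 6454 ± 2051 at S5–6 (log2 fold change 0.43, 95% interval -0.05 to 0.91). The steady 32377-5p (log2 fold change 0.30, 95% interval -0.24 to 0.85), 32382-3p (log2 fold change 0.52, 95% interval 0.03 to 1.00) and 777-5p (log2 fold change 0.33, 95% interval -0.10 to 0.75) had means of 4462, 4469 and 3529.97 at S7–11. The other 3 of the 10 were 40791-3p, whose change was undecided (log2 fold change -0.58, 95% interval -1.41 to 0.25), 32324-5p and 32386-3p, which were lower and higher at S5–6, respectively.

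Of the 3 microRNAs that fell, 1 was newly annotated. 32324-5p had 2213, 2665, 2179 and 3578 at S1–4 and 485, 459, 796 and 1064 at S5–6. Every S5–6 library was below every S1–4 library, by a factor of 2 at the nearest (log2 fold change -1.86, SE 0.32, adjusted p = 0.00062). The mean stayed at 633 at S7–11 and was 16.7 at S24–30. Its partner arm 32324-3p had 267, 252, 354 and 404 at S1–4 and 358, 331, 364 and 426 at S5–6, with overlapping groups (log2 fold change 0.28, SE 0.45, adjusted p = 0.744). The fall of the 5p arm kept its direction in every alternative, and its adjusted p lay above 0.001 without S1–4 library 4 (0.00198), S5–6 library 1 (0.0016), library 2 (0.00208) or library 3 (0.00159), and was 0.00394 with the 8 libraries alone.

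miR-306-3p was lower at all 3 of its loci. In *Drosophila*, miR-306 lies in a cluster with miR-9 genes. At locus 15607 the values were 433, 282, 298 and 317 at S1–4 and 0, 35, 39.9 and 64.8 at S5–6, and the groups did not overlap (log2 fold change -3.19, SE 0.57, adjusted p = 0.00063). Loci 36127 and 15585 had the adjusted p values 0.00193 and 0.0248 and log2 fold changes of -3.41 and -1.95. The 3 loci carry the same mature name, and salmon divided their reads unevenly. In S5–6 library 1, loci 15607 and 36127 were given 0 and locus 15585 held all 198 normalized counts. The sum of the 3 loci does not depend on this division. It was 1299, 868, 894 and 942 at S1–4 and 198, 102, 117 and 187 at S5–6, and the groups lay more than 4-fold apart at the nearest (log2 fold change -2.83, SE 0.31, adjusted p = 5.26e-07, over 193 units). In this fit near-equal copies of other microRNAs were also summed, which was chosen after the data were seen. With only same-named loci summed, the log2 fold change was -2.76 (edgeR, adjusted p = 7.23e-06). The call for locus 15607 alone lay above an adjusted p of 0.001 without S1–4 library 1 (0.00101), S1–4 library 4 (0.00136), S5–6 library 2 (0.00208) or library 3 (0.00159), and was 0.0325 with the 8 libraries alone. The 5p arm of miR-306 did not fall. Its sum was 751, 685, 775 and 927 at S1–4 and 1059.6, 1001, 1096 and 932 at S5–6, higher in all 4 S5–6 libraries than in any S1–4 library, though library 4 of both time-points was nearly equal, and steady by the interval (log2 fold change 0.31, SE 0.17, adjusted p = 0.287).

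The third was miR-1-3p of locus 24575, a microRNA of muscle in insects and vertebrates, with 75.8, 1296, 119 and 34.9 at S1–4 and 23.5, 20, 14.8 and 24.9 at S5–6. Library 2 of S1–4 was more than 10-fold above every other library of either time-point, and the groups did not overlap (log2 fold change -4.03, SE 0.77, adjusted p = 0.000995). Without this library the log2 fold change was -2.01 (SE 0.40, adjusted p = 0.00204), and without any of the 4 S5–6 libraries in turn the adjusted p was 0.0016 to 0.00454. With the 8 libraries alone it was 0.0575. The same library was high in 42399-3p (chosen after its values were seen), with 40.9, 393, 37.8 and 14 at S1–4 and 23.5, 15, 22.2 and 9.97 at S5–6. Without it the adjusted p of 42399-3p was 0.216. This newly annotated microRNA, like miR-1-3p, was more abundant in late embryos, with 389.8 for 42399-3p and 1124 for miR-1-3p at S24–30. The 6 muscle microRNAs listed (both arms of miR-1 and of the miR-133 loci) summed to 34.9 to 1303 at S1–4, 28.1 to 38.3 at S5–6 and 898 to 1668 at S24–30, and 4 of the 6 were counted at S1–4 and 3 at S5–6. The neuron microRNAs miR-124 and miR-7 summed to 1295 to 1903, 827 to 1463 and 7565 to 14070 and the let-7 complex, which is lower late, to 5489 to 10359, 8749 to 16959 and 369 to 587. At S1–4 and S5–6, nearly all of the neuron sum was miR-7-5p, and miR-124-3p was at 0 to 2.41 and 0 to 11.7. Most of the let-7 complex sum at these time-points was Dpu-Mir-10-P2-5p. The part of muscle RNA in the fall of miR-1-3p was not tested.

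**Figure D2:**
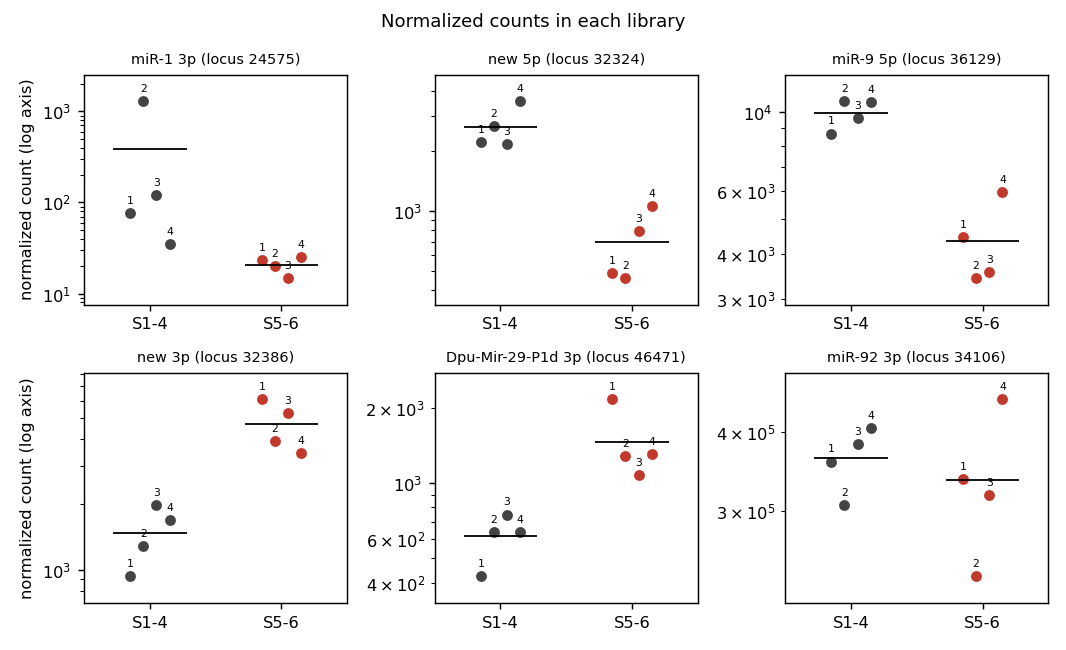
Normalized counts (log axes) of 6 microRNAs in each library, with S1–4 in black and S5–6 in red, the library number above each point and the mean as a line. The 2 time-points do not overlap in the first 5 panels and overlap in miR-92-3p of locus 34106, and the mean of miR-1-3p at S1–4 rests on library 2.

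Other microRNAs passed an adjusted p of 0.05 with a change below the size of a call. The smallest adjusted p of all belonged to miR-9-5p of locus 36129, of a family that acts in the nervous system of flies and vertebrates. It had 8694, 10712, 9611 and 10617 at S1–4 and 4467, 3429.5, 3569 and 5982 at S5–6. The groups did not overlap (log2 fold change -1.13, SE 0.13, adjusted p = 1.78e-06), the level was back at 7726 at S7–11, and the adjusted p stayed at or below 0.000916 when any of the 8 libraries was left out. Its neighbour miR-9b-5p of locus 36123 had 3443, 3641, 3663 and 4119 at S1–4 and 2296, 1587, 1889 and 2839 at S5–6, again without overlap (log2 fold change -0.74, SE 0.13, adjusted p = 0.000678). The difference between these loci and the other miR-9 loci was not tested. miR-9-5p of loci 31740 and 31742, which share reads, had log2 fold changes of -0.05 and -0.03, with adjusted p values of 0.959 and 0.975, and were steady by the interval. They had 1027, 1273, 221 and 235 at S1–4 and 523, 807, 778 and 274 at S5–6 for locus 31740, a spread of more than 5-fold within S1–4, and were not steady with the 8 libraries alone. Of the 9 tested miR-9 microRNAs, 3 were lower at an adjusted p of 0.05, 0 higher, 2 steady and 4 undecided (of all 234 tested, 5.56% were lower, 8.55% higher and 18.8% steady), with a median of -0.05 against 0.27 for all tested microRNAs. Loci 36123, 36127 and 36129 lie on 1 contig with Dpu-Mir-9-o15 (locus 36126) and the newly annotated 36131. Of these 2, Dpu-Mir-9-o15-3p had 36.1, 29.7, 33.2 and 32.1 at S1–4 and 70.6, 41.6, 72.5 and 47.4 at S5–6, higher at S5–6 without overlap (log2 fold change 0.89, SE 0.36, adjusted p = 0.0841), and 36131-5p was steady (log2 fold change -0.01, 95% interval -0.41 to 0.39).

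Among the increases, Dpu-Mir-29-P1d-3p had 423, 639, 749.5 and 637 at S1–4 and 2169, 1292, 1082 and 1311 at S5–6. All S5–6 libraries were above all S1–4 libraries (log2 fold change 1.32, SE 0.26, adjusted p = 0.00146), and the adjusted p was at most 0.0294 with any library left out and 0.0509 with the 8 libraries alone. miR-305-5p, which acts in gut stem cells in *Drosophila*, had 383, 335, 352 and 338 at S1–4 and 471, 521, 584 and 528 at S5–6 (log2 fold change 0.66, SE 0.14, adjusted p = 0.00283). It did not overlap, but its adjusted p lay above 0.05 without S1–4 library 2 (0.0634), S5–6 library 2 (0.084) or S5–6 library 3 (0.0766). miR-275-3p, whose locus lies beside that of miR-305, was steady (chosen after its values were seen; log2 fold change 0.04, 95% interval -0.23 to 0.30). miR-10-5p, a microRNA of the Hox complex, had 4896, 5911, 4446 and 4337 at S1–4 and 7533, 8879, 8537 and 5628 at S5–6, with S5–6 library 4 below S1–4 library 2 (log2 fold change 0.75, SE 0.21, adjusted p = 0.0187). Its adjusted p was 0.0563 to 0.162 without S1–4 library 1, 2 or 4 or without S5–6 library 1, 2 or 3. Smaller increases were found for the 3p arms of miR-279b at loci 31938 and 31940, which share reads (0.38 and 0.39, adjusted p = 0.0188 and 0.0187), with overlapping groups, and neither passed 0.05 without S1–4 library 1 or 2 or without any 1 of the S5–6 libraries (0.175 to 0.593). Their sum with the third locus was 4279, 4608, 4976 and 5022 at S1–4 and 6609.7, 4708, 5106 and 7132 at S5–6, and in the fit of summed copies it was steady (log2 fold change 0.23, SE 0.12, adjusted p = 0.264). That fit has its own scaling, and the value of bantam-3p, with 1 locus, was also lower in it (0.29 against 0.44). The lower value of the sum is therefore not a measure of the summing alone. 2263-3p and 2263-5p, the arms of 1 newly annotated precursor, were both higher, by 1.06 and 1.01 in log2 fold change (adjusted p = 0.0187 for both), but only libraries 2 and 3 of S5–6 were above the S1–4 range, and without these the adjusted p of 2263-3p was 0.272 and 0.145 and of 2263-5p 0.118 and 0.323. It was 0.0531 to 0.0851 without S1–4 library 1 or 4 for both arms, library 3 for 2263-3p or library 2 for 2263-5p. 47223-3p was the other newly annotated microRNA of these 10, with 2718, 1744, 1664 and 1637 at S1–4 and 1083, 713, 642 and 1749.9 at S5–6 and overlapping groups (log2 fold change -0.88, SE 0.25, adjusted p = 0.0201), and an adjusted p of 0.0766 to 0.0929 without S1–4 library 1, S5–6 library 2 or S5–6 library 3.

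A further 13 microRNAs had an adjusted p of at most 0.05 and a log2 fold change past 1.5 but missed the adjusted p of 0.001, and those named here were chosen after their values were seen, except for those named above. The most abundant was 32386-3p, one of the 10 most abundant newly annotated microRNAs, with 929.8, 1286, 1973 and 1694 at S1–4 and 6082, 3916, 5267 and 3439.9 at S5–6. Its S5–6 libraries were all above its S1–4 libraries (log2 fold change 1.75, SE 0.40, adjusted p = 0.004). Its mean was 9057 at S7–11 and 20.2 at S24–30. Without S1–4 library 1 the adjusted p was 0.0622. miR-193-3p had 58.9, 53, 15.9 and 32.1 at S1–4 and 70.6, 259.7, 164 and 39.9 at S5–6, and 38478-3p had 0, 0, 12.6 and 0 at S1–4 and 0, 178, 146 and 22.4 at S5–6. Both owed their high S5–6 means to libraries 2 and 3, the libraries nearer to later embryos on the first component. Without S5–6 library 2 the adjusted p of miR-193-3p was 0.0673. Libraries 2 and 3 were also the high ones for Dpu-Mir-96-P2-5p (18, 29.7, 19.9 and 5.59 at S1–4 and 35.3, 148, 112 and 29.9 at S5–6) and for miR-2788-3p of locus 5604 (0, 0, 6.64 and 0 at S1–4 and 0, 221, 127 and 0 at S5–6). Against S1–4 and S5–6, the later time-points were higher in miR-193-3p (log2 difference 1.96) and 38478-3p (2.05). They were not higher in Dpu-Mir-96-P2-5p (-0.96) or in miR-2788-3p of locus 5604 (-0.01). Outside S5–6 libraries 2 and 3, locus 5604 had counts only in S1–4 library 3. It is 1 of 2 loci of this name, whose sum was counted in all 8 libraries. The sum was 20.4, 48.8, 12.6 and 34.9 at S1–4 and 108, 434.5, 259 and 24.9 at S5–6. In the fit of summed copies its log2 fold change was 2.88 (SE 0.77, adjusted p = 0.0135). For Dpu-Mir-96-P2-5p and miR-2788-3p of locus 5604, the adjusted p was above 0.05 without S1–4 library 1 or 4 or S5–6 library 2 or 3 (0.0683 to 0.159). For this locus it was also above 0.05 without S1–4 library 2 (0.0796). Where an arm was at 0 in all libraries of a time-point, no fold is given. This was so for Dpu-Mir-29-P1d-5p (0, 0, 0 and 0 at S1–4 and 9.42, 0, 0 and 4.99 at S5–6) and for miR-279b-5p of locus 31938 (40.9, 0, 24.6 and 0 at S1–4 and 0, 0, 0 and 0 at S5–6), whose zeros depend on the division of reads among 3 same-named loci. Their 5p arms summed to 124, 72.1, 75 and 64.3 at S1–4 and 18.8, 33.3, 41.4 and 57.3 at S5–6, lower at S5–6 without overlap (log2 fold change -1.22, SE 0.32, adjusted p = 0.0135).

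The balance of the arms of a precursor was measured in each library, as log2 of the 5p over the 3p counts. Of the precursors with at least 10 normalized counts on both arms together at both time-points, 48 had more of the 5p and 77 more of the 3p arm at S1–4, and 119 of these had the same more abundant arm at S5–6. No ratio changed at an adjusted p of 0.05 in the 8 libraries (limma, 0 precursors, 0% in either direction), and 13 had an unadjusted p below 0.05. When the spread was estimated from all 28 libraries, 12 passed, among them the 3 miR-306 loci, 32324, 32384 and miR-1. In the sum of its 3 loci, a step chosen after the data were seen, miR-306 was the only 1 of 107 units that passed. Its ratio was -0.34 ± 0.33 at S1–4 and 2.81 ± 0.52 at S5–6 (SD, n = 4; difference 3.15, SE 0.49, adjusted p = 0.0162). At S1–4 the 3p arm was slightly the more abundant, and at S5–6 the 5p arm exceeded it in all 4 libraries.

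Of single loci, 32324 had the lowest p, with ratios of 3.05, 3.39, 2.62 and 3.14 at S1–4 and 0.44, 0.47, 1.13 and 1.32 at S5–6. The groups did not overlap (difference -2.21, SE 0.50, adjusted p = 0.144), and the 5p arm remained the more abundant. 32384 had nearly balanced arms in 2 of the S1–4 libraries, with ratios of -1.92, -1.22, -0.01 and -0.28 at S1–4 and -2.90, -5.38, -2.83 and -2.49 at S5–6 (difference -2.54, SE 0.80, adjusted p = 0.242). Its 5p arm had 61.3, 106, 149 and 162 at S1–4 and 40, 9.99, 47.3 and 52.3 at S5–6 (log2 fold change -1.63, SE 0.39, adjusted p = 0.00583) and its 3p arm 235, 248, 149 and 197 at S1–4 and 306, 449.5, 342 and 299 at S5–6 (log2 fold change 0.87, SE 0.26, adjusted p = 0.0242), so that the 2 arms moved in opposite directions, each without overlap. Beside 32324 and the miR-306 loci, 32384, miR-1 and 39523 are described, chosen after their values were seen. For miR-1, the 5p arm was at 0 in all 8 libraries and its ratio follows the 3p arm alone (difference 3.40, SE 0.93, adjusted p = 0.144). The more abundant arm differed between the time-points at 6 loci. At the 3 miR-306 loci, 32310 and 32306 it was the 3p arm at S1–4 and the 5p arm at S5–6, and in Dpu-Mir-67 it was the 5p and then the 3p arm, each at an adjusted p above 0.05 (limma). Dpu-Mir-67 had 25.3, 17, 17.3 and 12.6 at S1–4 and 7.06, 6.66, 13.3 and 4.99 at S5–6 for its 5p and 8.42, 2.12, 3.98 and 1.4 at S1–4 and 0, 4.99, 29.6 and 2.49 at S5–6 for its 3p arm, and only library 3 of S5–6 had more of the 3p arm. For 39523 the ratio dropped (difference -4.58, SE 1.49, adjusted p = 0.244) as its 5p arm had 50.5, 89.1, 33.9 and 102 at S1–4 and 98.9, 0, 0 and 0 at S5–6. The 5p arms of loci 39527 and 39521 on the same contig had their zeros in other libraries, with 46.9, 67.9, 34.5 and 0 at S1–4 and 0, 0, 0 and 69.8 at S5–6 for the former and 46.9, 0, 34.5 and 0 at S1–4 and 0, 45, 42.9 and 0 at S5–6 for the latter.

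**Figure D3:**
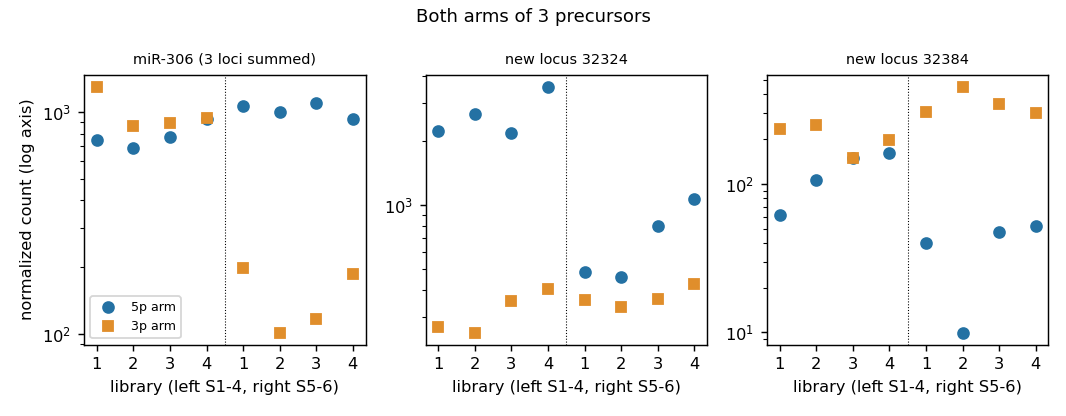
Normalized counts (log axes) of the 5p arm (blue circles) and the 3p arm (orange squares) of miR-306 (sum of 3 loci) and of the newly annotated 32324 and 32384, in each S1–4 library (left of the dotted line) and S5–6 library (right). The 3p arm of miR-306 and the 5p arms of 32324 and 32384 are lower in all 4 S5–6 libraries, and the other arm is not.

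Across precursors, the less abundant arms, as defined in the 20 libraries of later time-points, took a share of 0.463% ± 0.062 at S1–4, against 0.297% ± 0.052 at S5–6 (SD, n = 4). The S1–4 libraries held 0.42% to 0.554% and the S5–6 libraries 0.264% to 0.374%, without overlap, and p was 0.0286, the smallest that an exact permutation test of 4 against 4 libraries allows (adjusted over 6 measures 0.171). Outside the miR-92 loci, whose 3p arms dominate the total, the less abundant arms of 122 precursors held 2.58% ± 0.25 of the counts of both arms at S1–4, 1.74% ± 0.24 at S5–6 and 2.24% ± 0.17 at S7–11. The lowest S1–4 library had 2.29% and the highest S5–6 library 2.00%. miR-306-3p counts among the less abundant arms, since its 5p arm dominates in the later libraries, although the 3p arm had the higher mean at S1–4. With the 3 miR-306 loci left out, a choice made after the data were seen, the shares over 119 precursors were 2.04% ± 0.14 at S1–4 and 1.68% ± 0.24 at S5–6 and overlapped (S1–4 1.85% to 2.15%, S5–6 1.41% to 1.95%). The share of all counts was then 0.376% ± 0.058 at S1–4 and 0.286% ± 0.052 at S5–6 (exact permutation p = 0.114, adjusted over 6 measures 0.429, n = 4). In this share S5–6 library 2 (0.364%) lay within the S1–4 range of 0.341% to 0.462%. S5–6 libraries 1, 3 and 4 (0.256% to 0.267%) stayed below all S1–4 libraries. In 47 precursors whose less abundant arm had a mean of at least 10, this arm was lower against its partner at S5–6 in 32 and higher in 15, with a median change of -0.80 in log2 ratio (29, 15 and -0.70 without miR-306). Over all precursors measured, 56 were lower and 69 higher (median change 0.08). Many of these have a minor arm at or near 0, where the added 0.5 counts and the depth of the library set the ratio. Other measures of composition differed less. The 5p arms together held 4.87% ± 0.75 and 4.34% ± 1.1 of all counts (p = 0.429), and at an equal depth of 443924 rounded counts 207.5 ± 11 and 200.9 ± 15 microRNAs were detected (exact permutation p = 0.514, n = 4).

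**Figure D4:**
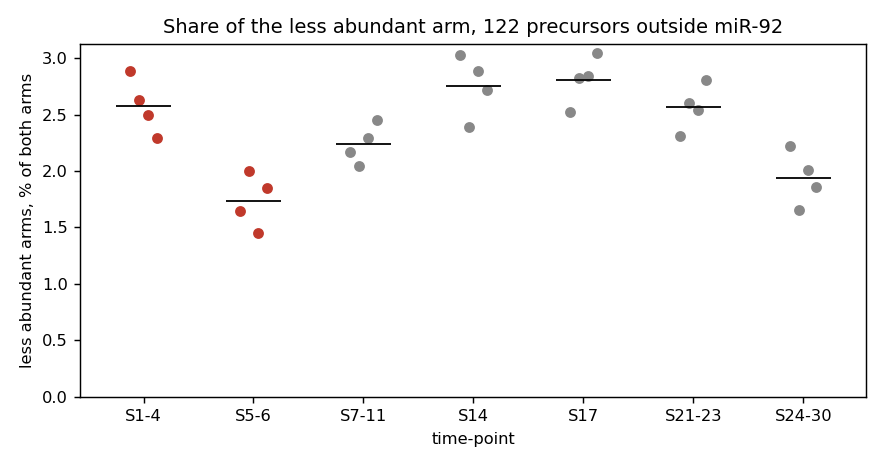
Share of the less abundant arm in the counts of both arms (percent), over 122 precursors outside miR-92, in each of the 4 libraries of the 7 time-points, with the mean as a line and S1–4 and S5–6 in red. The S5–6 libraries lie at 1.45% to 2.00%, below all S1–4 libraries (2.29% to 2.88%), a separation that is lost without miR-306 (1.41% to 1.95% against 1.85% to 2.15%).

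Of families known from other tissues and stages, most tested microRNAs were undecided, as were 157 of all 234 tested. Their counts stand beside 8.55% higher, 5.56% lower and 18.8% steady over all 234 tested microRNAs. The let-7 complex, here let-7c, Dpu-Mir-10-P2 and Dpu-Mir-10-P3, whose let-7 times developmental transitions in worms and insects, had 5 of 6 listed microRNAs tested, none of them past the call, 1 steady and 4 undecided (median log2 fold change 0.57, all microRNAs 0.27). let-7c-5p had 253, 193, 178 and 239 at S1–4 and 160.1, 103, 225 and 294 at S5–6. Of the Hox cluster, 5 of 6 were tested, and miR-10-5p was the only 1 at an adjusted p of 0.05. Both iab-4-5p, with 4.92 ± 5.38 at S1–4 and 7.27 ± 5.22 at S5–6, and miR-993-3p, with 18.8 ± 18.6 at S1–4 and 17.8 ± 16.8 at S5–6 (SD, n = 4), were at low counts. Of 12 tested microRNAs of miR-71 and of the miR-2 seed family, which represses pro-apoptotic genes in *Drosophila*, 1 was higher at an adjusted p of 0.05, 4 were steady and 7 undecided (median 0.52). miR-71-5p (log2 fold change 0.02, 95% interval -0.29 to 0.33) and miR-71-3p (log2 fold change 0.09, 95% interval -0.22 to 0.40) were both steady and both arms were abundant, with 583 ± 94.8 at S1–4 and 562 ± 89.6 at S5–6 for the 5p and 382 ± 80.3 at S1–4 and 382 ± 55.1 at S5–6 for the 3p arm. miR-2b-3p of locus 30818 had 380.1, 333, 130.1 and 217 at S1–4 and 431, 641, 456 and 289 at S5–6 (log2 fold change 0.91, SE 0.27, adjusted p = 0.0256), with overlapping groups.

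Of 10 tested microRNAs of the miR-279 family, which sets the identity of sensory neurons in *Drosophila*, 3 were higher and 2 lower at an adjusted p of 0.05. Over all tested microRNAs these shares were 8.55% and 5.56%. The 3 were the miR-279b-3p copies, which share reads. Their sum was steady in the fit of summed copies (edgeR, adjusted p = 0.264), which has its own scaling. The 2 were the 5p arms of miR-279b (locus 31938) and of Dpu-Mir-279-o6. The latter (chosen after its values were seen) had 147, 168, 127 and 89.5 at S1–4 and 47.1, 83.2, 59.2 and 109.7 at S5–6 (log2 fold change -0.76, SE 0.24, adjusted p = 0.0346), while its 3p arm was steady (log2 fold change 0.42, 95% interval 0.11 to 0.72). Among the neural microRNAs, 13 of 16 were tested, with 1 higher and 2 lower (8.55% and 5.56% over all 234). miR-7-5p, of neurons and photoreceptors, had 1898, 1736, 1293 and 1835 at S1–4 and 1088, 812, 1229.5 and 1458 at S5–6 (log2 fold change -0.50, SE 0.27, adjusted p = 0.208), and miR-124-3p, a defining microRNA of neurons, was at 0 to 2.41 at S1–4 and 0 to 11.7 at S5–6. bantam-3p, a growth regulator, had 85.4, 106, 77.7 and 108 at S1–4 and 111, 108, 139 and 119.6 at S5–6. Its groups did not overlap, but its interval lay within the steady range (log2 fold change 0.44, 95% interval 0.07 to 0.82). Of the miR-34 cluster, 3 of 6 were tested. miR-34-5p, which is loaded maternally in *Drosophila*, was steady at 175 ± 41.9 at S1–4 and 153 ± 59.8 at S5–6 (log2 fold change -0.13, 95% interval -0.74 to 0.49), and miR-277-3p and miR-317-3p were undecided. Dpu-Mir-8 had similar amounts of both arms. Its 5p arm was undecided (log2 fold change -0.60, 95% interval -1.09 to -0.11) and its 3p arm steady (log2 fold change -0.48, 95% interval -0.94 to -0.02), with 129.9, 102, 91.6 and 103 at S1–4 and 84.8, 69.9, 53.3 and 87.2 at S5–6 and no overlap. miR-315-5p, an activator of Wingless signalling in *Drosophila*, was steady (log2 fold change -0.10, 95% interval -0.80 to 0.60), and miR-276-3p undecided (log2 fold change 0.07, 95% interval -1.02 to 1.16). With the 8 libraries alone, miR-315-5p, miR-34-5p and Dpu-Mir-8-3p were not steady. With each library left out in turn, they were steady in 6, 5 and 1 of the 8 fits. The highest library of miR-315-5p was 3.44-fold above its lowest. Of the 6 tested microRNAs of miR-87, 2 were steady and 4 undecided, and the 4 of miR-1175, the 2 of miR-190 and the 2 of Mir-67 were all undecided.

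The contig with the most newly annotated precursors, 13, listed 26 of their microRNAs, of which 20 were tested. 1 fell (32324-5p), 3 were higher and 1 lower at an adjusted p of 0.05 below a call, 2 were steady and 13 undecided, with a median log2 fold change of 0.29. Over all 234, 1.28% fell, 8.55% were higher and 5.56% lower at an adjusted p of 0.05, the called ones included, and 18.8% were steady. The higher ones were 32386-3p, 32384-3p and, chosen after its values were seen as was the next, 32313-3p. It had 44.5, 95.5, 135 and 211 at S1–4 and 485, 241, 218 and 284 at S5–6 (log2 fold change 1.40, SE 0.43, adjusted p = 0.0271) and 1713 at S7–11. Dpu-Mir-96-P3-3p of the same contig had 662, 732, 862 and 867 at S1–4 and 1342, 1911, 1974 and 985 at S5–6, without overlap (log2 fold change 1.11, SE 0.43, adjusted p = 0.079), and 10367 at S7–11. The near-equal copies 32306-5p and 32312-5p, which share reads, had zeros in the same libraries of both time-points, with 42.1, 0, 35.2 and 0 at S1–4 and 0, 73.3, 51.8 and 67.3 at S5–6 for the former. On the contig with 6 newly annotated precursors, 3 copies with nearly equal counts, 39519-3p, 39523-3p and 39527-3p, were steady, for example with 1090.5 ± 114 at S1–4 and 1238 ± 255 at S5–6 for 39519-3p (log2 fold change 0.23, 95% interval -0.06 to 0.52). Of 57 tested newly annotated microRNAs on contigs outside the 6 with most of them, 0 passed the call (edgeR, 8 higher and 6 lower at an unadjusted p below 0.05), 11 were steady and 40 undecided.

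The libraries that lay nearer to the later embryos shared a set of microRNAs. Of 180 microRNAs expressed at S1–4 or S5–6, 10 (5.56%) had higher counts in S1–4 libraries 1 and 2 and S5–6 libraries 2 and 3 than in any of the other 4 libraries. All 10 were more than 2-fold more abundant in the later time-points, as were 65 of the 180, which is no independent measure, since the libraries were set apart by a component that also separates early from late embryos. They were miR-9-5p of loci 31740 and 31742, 2263-3p, miR-276-3p, miR-279-3p, miR-316-5p, miR-281-5p, 29775-5p, miR-190-5p and miR-993-3p, which were chosen after their values were seen. miR-276-3p, which is among the most abundant microRNAs of late embryos here with a mean of 11962, had 869.7, 533, 77 and 147 at S1–4 and 311, 633, 435 and 167 at S5–6. miR-190-5p had 103, 76.4, 14.6 and 22.4 at S1–4 and 30.6, 73.3, 87.3 and 15 at S5–6. Each set has 2 libraries of either time-point, with S5–6 library 1, which lay between the sets on the component, placed with library 4. 12 others of the 180 were lower in these 4 libraries than in the other 4, 14821-3p and 325-3p the most abundant of them. Of the 12, 8 were more than 2-fold less abundant in the later time-points, as were 61 of the 180, which is no independent measure either. With S1–4 libraries 3 and 4 against S5–6 libraries 1 and 4, 0 microRNAs passed the call (edgeR, 30 higher and 15 lower at an unadjusted p below 0.05), and miR-9-5p of locus 36129 (-1.01, adjusted p = 0.022), 32324-5p (-1.95, 0.022) and miR-306-3p of locus 15607 (-3.35, 0.022) were lower at an adjusted p of 0.05. With the other 4 libraries, 4 rose and 5 fell, but some of these have no SE, as both libraries of a time-point were at 0. These were 38478-3p among the rises, and 39527-5p, 39523-5p and Dpu-Mir-1175-5p of locus 30947 among the falls. The labels give no batch, and what sets these libraries apart was not tested.

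**Figure D5:**
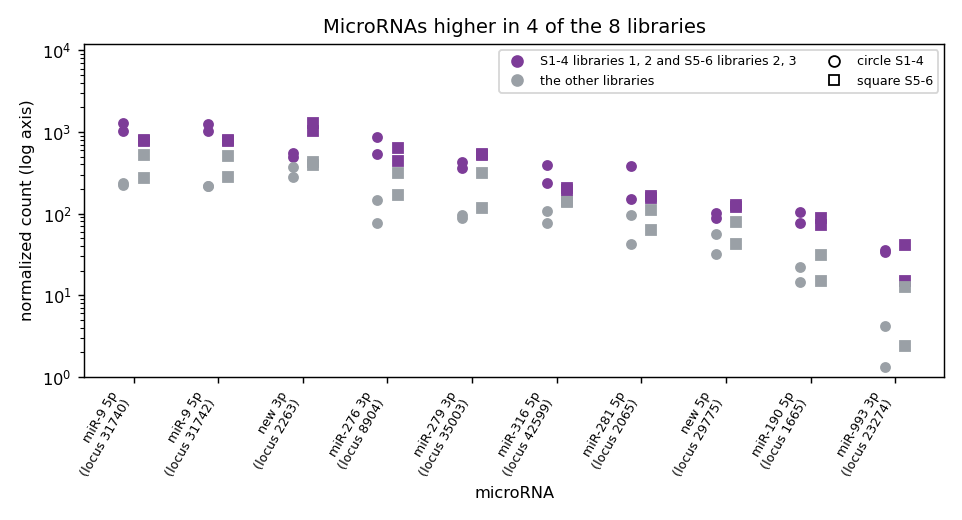
Normalized counts (log axis) of the 10 microRNAs that were higher in S1–4 libraries 1 and 2 and S5–6 libraries 2 and 3 (purple) than in the other 4 libraries (grey). Circles are S1–4 and squares S5–6, and no grey point lies above a purple one in any of the 10.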

How the data were processed

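Whole embryos of 7 time-points were sampled by the authors in 28 small RNA libraries, of which the 4 of S1–4 and the 4 of S5–6 are compared here; 14 mRNA libraries were not used. The deposited values are expected counts, reads that salmon estimated for each mature microRNA, and are not normalized. Adaptors were trimmed by the authors (cutadapt, version 1.18). They then removed tRNA and rRNA reads, aligned the rest to the 349 mature microRNAs predicted with miRDeep2 with Bowtie (version 1.1.1), allowing a mismatch and reporting all matches, and quantified them with salmon (version 0.14.1), as the methods and the submitters' processing notes state. Reads of near-identical microRNAs were thus divided among loci, so values of single copies are uncertain (12 groups of near-equal copies, 31 microRNAs). Mature sequences are not shown here, and loci are identified by number on contigs of the Phaw 5.0 assembly.

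Counts were rounded. Levels were normalized with DESeq2 size factors (version 1.42.0). MicroRNAs with a mean of at least 10 in at least 1 time-point entered a quasi-likelihood test (edgeR, version 4.0.16; TMM factors), in 1 model of 28 libraries and 7 groups, with Benjamini-Hochberg adjustment over 234 microRNAs. Arm ratios, log2 of 5p over 3p counts after adding 0.5 to both, were tested with limma (version 3.58.1) in the 8 libraries over precursors with at least 10 counts at both time-points, at an adjusted p of 0.05. Shares were compared by exact permutation tests, two-sided. Counts of 443926 to 1846449 a library allow up to 3 counts (95%) where 0 were observed, for counting error only. No pair of replicates agreed within sampling noise. The edgeR test and a limma fit were run on simulated data. These gave all microRNAs the same dispersion and all arm ratios the same spread, with no division of reads among copies. They therefore do not measure the error rates in these libraries. Named are the microRNAs past the thresholds, the 10 most abundant, the 10 most abundant steady and newly annotated ones, the 10 with the lowest adjusted p below the size of a call, examples of each list by abundance, and precursors whose arms changed or whose more abundant arm differed. The microRNAs, lists and tests were chosen with earlier results of these data known. R (version 4.3.3), Python (version 3.11.15) and matplotlib (version 3.10.9) were used. Alternatives covered scaling, filters, tools, copies, libraries left out and sets of libraries.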

Additional observations from a re-analysis of the deposited data

Results flagged for a closer look

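In 116 groups of 4 libraries, for the named microRNAs, the arm ratios and the shares, 14 had a library whose gap to its nearest neighbour took more of the group's range than Dixon's critical value allows, and chance gives about 1 in 20. In normalized counts, these were S1–4 library 2 in miR-1-3p (1296, others 34.9 to 119) and 42399-3p (393, others 14.0 to 40.9), S1–4 library 1 in 47223-3p (2718, others 1637 to 1744) and miR-306-3p of locus 36127 (438, others 297 to 302), S5–6 library 1 in Dpu-Mir-10-P2-5p (16547, others 8437 to 9198), and S1–4 library 3 in 38478-3p (12.6) and miR-2788-3p of locus 5604 (6.64), where the others were at 0.

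Among the shares, S5–6 library 3 had 8.12% of miR-184 copies (others 4.91% to 5.23%) and S5–6 library 2 0.374% of less abundant arms (others 0.264% to 0.281%). Among the arm ratios, on the log2 scale, they were 8.18 in S5–6 library 1 for miR-306 of locus 15607, -4.64 in S5–6 library 2 for miR-1, -5.38 in S5–6 library 2 for 32384, -3.71 in S5–6 library 1 for 39523 and -6.11 in S1–4 library 2 for 32310.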

How the results depend on the processing

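Counts of calls depended on the tool and on the libraries. The DESeq2 Wald test gave 3 that rose and 5 that fell. In edgeR, 0 fell with the 8 libraries alone (15 higher and 21 lower at an unadjusted p below 0.05), 0 with a replicate block in these libraries (10 and 19), 0 with the set of libraries as a term (14 and 23) and 0 with S1–4 libraries 3 and 4 against S5–6 libraries 1 and 4 (30 and 15). The other 2 against 2 libraries gave 4 that rose, 5 that fell and 25 steady. These counts, and those with a library left out, include microRNAs at 0 in all libraries of a time-point. Leaving out each library gave 0 to 1 that rose, 0 to 4 that fell (1 without S1–4 library 4, 0 without S5–6 library 2 and 0 without library 3, the latter with 27 and 24 lower at an unadjusted p below 0.05) and 28 to 45 steady (28 without S1–4 library 4). At an adjusted p of 0.05, 20 were higher and 13 lower, and 11 and 10 of these also had a log2 change of 1 or more in size. A steady range of 1.5 gave 85 steady microRNAs and of 0.58 gave 11. Changed arm ratios numbered 12 with all 28 libraries, 0 to 4 with each library left out (4 without S5–6 library 1), 1 with copies summed (added after seeing the data) and 0 with a replicate block. The difference in the share of miR-92 was -0.42 to 1.04 points and of miR-184 -0.23 to 0.84 points with each library left out, with both signs (miR-92 lower without S1–4 library 2 and without S5–6 library 4, miR-184 without S5–6 library 3). No value is given for 2 microRNAs at 0 in all libraries of a time-point, nor for 5 alternatives of others that left a time-point at 0. In total, 751 of 791 single-microRNA alternatives kept their side of the thresholds. Most of these are of microRNAs that were not called, so the total does not measure how firm the calls are. Of the 40 that changed, 26 were a lost call of 1 of the 3 microRNAs that fell, and 14 a call gained by another microRNA. Direction was compared only for microRNAs with an adjusted p of at most 0.05 in the fit of 28 libraries, and none of these reversed. Others could change sign, such as 14892-3p, with log2 fold changes of -0.32 to 0.10 with each library left out. Direction and side of the thresholds were kept by 62 of 65 alternatives for shares and 187 of 203 for arm ratios. The causes were not tested. Replicate numbers did not pair the libraries (correlations of same-numbered deviations 0.01, 0.13, 0.05 and -0.09). Below 100 counts, the interval was wider than the steady range for most microRNAs.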
